A study of Mus musculus with 12 samples.

Results

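Expression of CaM kinase II and of the class IIa histone deacetylases was compared in the gastrocnemius, a calf muscle, of mini-muscle and regular-muscle mice. The members were the 4 CaM kinase II genes (Camk2a, Camk2b, Camk2d and Camk2g) and the 4 class IIa deacetylase genes (Hdac4, Hdac5, Hdac7 and Hdac9). Every probe set that the platform annotation assigns to exactly 1 of these 8 genes was taken, which gave 24 probe sets of 45037 tested and 8 genes of 18193 with a probe set of their own. No probe set of several genes held a member. The 12 arrays came from 12 male mice of generation 37 of selective breeding for high voluntary wheel running, with a mean age of 84 days (79 to 86). The 6 mini-muscle mice were from high-runner line 3, and the left and right muscles of each animal were pooled. The 6 regular-muscle mice were from high-runner line 8, and the muscle of 1 limb was used. Both groups carry the selection for running, and no unselected control line was analysed here. Phenotype, breeding line and limb pooling coincide, and their parts in any difference cannot be told apart. In whole muscle, fewer cells of a type and less RNA per cell cannot be told apart either.

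CaM kinase II is a multi-subunit protein kinase that calcium-loaded calmodulin switches on and that autophosphorylation can hold active after calcium has fallen. Class IIa deacetylases bind MEF2 transcription factors and repress their target genes. When a CaM kinase, protein kinase D or a related kinase phosphorylates them, 14-3-3 proteins carry them out of the nucleus and MEF2 is released. In skeletal muscle this route is known for tying contractile activity to slow-fibre and oxidative genes. Hdac4 is also known for its induction in denervated muscle, where it represses Dach2, a repressor of myogenin, and so raises myogenin and the acetylcholine receptor genes.

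The values are MAS5 intensities, taken to log2. A positive difference means a higher log2 intensity in mini-muscle, and each is given with its standard error (SE). Probe sets passed the test, and are said to have risen or fallen, where limma gave an adjusted p (Benjamini-Hochberg, over all 45037 probe sets) under 0.05. Of all probe sets, 7.12% passed, 3.87% as higher and 3.25% as lower. The labelled tissue was borne out by its markers, since Acta1 (skeletal actin), Ckm (muscle creatine kinase) and Myh4 (the fast IIb myosin) had mean log2 intensities of 17.31, 17.31 and 16.70. The arrays had medians between 211.9 and 275.2 intensity units, and no pair of arrays held the same values.

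Of the 24 member probe sets 5 passed, 3 of them higher and 2 lower in mini-muscle. The probe sets of 1 gene read the same gene in the same animals, so they are not independent. The 2 that fell read Camk2a, and the 3 that rose read Camk2d and Hdac4. The groups did not overlap for 5 of the 24, against 4.66% of all probe sets. Taking the brightest probe set of each gene, 3 of the 8 genes passed, with Camk2d and Hdac4 higher and Camk2a lower. In the same fit 10.4% of all 18193 genes passed at their brightest probe set, 5.84% as higher and 4.56% as lower. All 8 members were brighter than the median gene, and 19.4% of the 9097 genes that bright passed. When only those bright genes were tested, 4 of the 8 members passed, Hdac5 being the addition, beside 26.7% of all genes in that fit. The shares called rise with brightness, so the members' count is given beside these backgrounds. Whether the count of the 8 genes departs from them was not tested.

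The promoters of Camk2d, Hdac4 and Hdac5 are printed here from RefSeq (GRCm38.p6). Camk2d and Hdac4 rose, while Hdac5 passed among the bright genes but not over all probe sets (limma, adjusted p = 0.067). Each promoter runs from 250 bases before the transcription start to 50 after it and reads 5′ to 3′ on the gene's own strand. They show whether the letters of a MEF2 consensus lie close to the start, since MEF2 is the factor that class IIa deacetylases repress. The Camk2d promoter is at chr3:126596701-126597000 on the plus strand, the Hdac4 promoter at chr1:92180292-92180591 on the minus strand and the Hdac5 promoter at chr11:102230123-102230422 on the minus strand. Capitals mark a MEF2 consensus and the letters TGACG, the core of a cyclic AMP response element, on either strand.
Camk2d: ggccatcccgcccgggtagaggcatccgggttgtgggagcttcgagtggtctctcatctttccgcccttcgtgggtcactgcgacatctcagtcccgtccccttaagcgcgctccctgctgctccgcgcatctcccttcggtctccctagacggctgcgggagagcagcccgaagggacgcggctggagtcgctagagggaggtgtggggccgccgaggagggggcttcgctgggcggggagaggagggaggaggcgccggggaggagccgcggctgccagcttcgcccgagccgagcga
Hdac4: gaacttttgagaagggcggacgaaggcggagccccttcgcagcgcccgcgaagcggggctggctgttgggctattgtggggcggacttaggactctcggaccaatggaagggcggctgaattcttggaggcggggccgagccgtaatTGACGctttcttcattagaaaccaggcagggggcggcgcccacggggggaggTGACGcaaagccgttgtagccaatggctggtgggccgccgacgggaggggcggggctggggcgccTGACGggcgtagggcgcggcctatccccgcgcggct
Hdac5: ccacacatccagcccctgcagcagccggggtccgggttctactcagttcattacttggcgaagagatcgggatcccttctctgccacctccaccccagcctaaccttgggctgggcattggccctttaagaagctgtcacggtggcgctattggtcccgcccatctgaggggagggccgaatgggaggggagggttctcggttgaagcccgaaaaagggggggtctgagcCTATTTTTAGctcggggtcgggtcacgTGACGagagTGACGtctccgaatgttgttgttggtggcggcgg
The Hdac5 promoter held 1 MEF2 consensus, which began at position -20 relative to the start, and 2 TGACG matches. The motif also occurred in 0.557% of 32851 RefSeq promoters of the same length, and Hdac5 was partly picked for printing after this match was seen. The Hdac4 promoter held no MEF2 consensus and 3 TGACG matches, a motif found in 20.8% of all promoters. The Camk2d promoter, with a GC content of 70.3%, held neither motif. Another motif, the E-box CANNTG that myogenin and its relatives bind, occurred in 72.3% of promoters. It matched at 2 places in the Hdac5 promoter, once overlapping a TGACG, and at none in those of Hdac4 and Camk2d. The matches are letters in a window and not shown sites, and a window without a match says nothing about the factor. RefSeq promoters were found for 6 of the 8 members, and the other promoters (Camk2b, Hdac7 and Hdac9) held no MEF2 consensus and no TGACG.

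Camk2a fell in mini-muscle by 1.14 on the log2 scale (SE 0.129), which made regular-muscle 2.20-fold higher. Camk2a encodes the alpha subunit of the kinase, best known from the brain. In skeletal muscle the gene is also known to give alphaKAP, a protein without a kinase domain that anchors the enzyme at the sarcoplasmic reticulum. Which product each probe set reads was not tested. On the brightest probe set (1457311_at) the mini-muscle arrays had a lowest, median and highest log2 intensity of 10.94, 11.02 and 11.59, and the regular-muscle arrays had 12.05, 12.17 and 12.76. Every mini-muscle array lay below every regular-muscle array, and replicate 4 of the former and replicate 6 of the latter stood above the rest of their groups. The adjusted p was 8.0e-06, and the 95% interval of the difference was -1.41 to -0.87.

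The second probe set of Camk2a to pass (1442707_at) fell by 1.25 (SE 0.180, adjusted p = 1.1e-04). Its mini-muscle arrays had a lowest, median and highest of 8.55, 9.40 and 9.46 and its regular-muscle arrays had 10.07, 10.41 and 10.88, again without overlap. Within groups these probe sets did not track each other, with r = -0.03 over 12 arrays after subtracting group means, as a description. The other 4 Camk2a probe sets did not pass. On 1443876_at the difference was -0.89 (adjusted p = 0.34), and replicate 1 of mini-muscle read 5.51 while its other 5 arrays lay between 8.68 and 9.33. Without that array the difference was -0.32 (adjusted p = 0.46). On 1437125_at it was -0.48 (adjusted p = 0.64). The remaining probe sets were dimmer than the median probe set. They gave 1.02 (1441734_at, 95% interval -0.18 to 2.22, adjusted p = 0.40) and -0.05 (1452453_a_at, adjusted p = 0.99). Averaging all 6 probe sets of Camk2a gave -0.46 with an adjusted p of 0.26, so the call rests on the brighter probe sets.

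Because Camk2a is rich in neurons, markers of motor axons and neurons are given beside it. All 8 measured neuronal markers were dimmer than the median gene, and none passed the test. Their summed intensity ran from 857.4 to 1781 in mini-muscle and from 999.4 to 1712 in regular-muscle, with overlap. Of the muscle fibre markers, 1 of 8 rose and 3 fell, and their summed intensity was 947500 to 1124000 in mini-muscle and 1126000 to 1367000 in regular-muscle. Among the latter 3 was Myh4, which fell by 1.33. The part of fibre type in the Camk2a difference was not tested.

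The genes whose within-group pattern was most like that of Camk2a, among 9096 genes brighter than the median gene, were Fbxw8 (r = 0.905, rho = 0.895), Cpeb3 (r = 0.886, rho = 0.776) and Nr2c2 (r = 0.861, rho = 0.874). These correlations are over 12 arrays after subtracting group means, and they are picked as the highest of many. Without mini-muscle replicate 4 and regular-muscle replicate 6, the arrays farthest from the median, r was 0.754, 0.677 and 0.621. None of these genes differed between the groups by the test, with differences of 0.07 (adjusted p = 0.87), -0.08 (adjusted p = 0.74) and -0.30 (adjusted p = 0.10).

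Camk2d, which encodes the delta subunit, the main form in heart and a broadly expressed one, rose in mini-muscle on 2 of its 7 probe sets. On the brightest (1422659_at) the mini-muscle arrays had a lowest, median and highest of 11.02, 11.48 and 11.76, and the regular-muscle arrays had 10.59, 10.93 and 11.32. The groups overlapped, since mini-muscle replicate 1 lay below regular-muscle replicates 2, 3 and 4. The difference was 0.53 (SE 0.142, 1.44-fold, adjusted p = 0.027). The call was lost when any of mini-muscle replicates 2, 5 and 6 or regular-muscle replicates 1, 5 and 6 was left out, with adjusted p between 0.060 and 0.072 and differences from 0.46 to 0.61 over all 12 omissions.

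The second probe set (1427763_a_at) separated the groups. Its arrays had a lowest, median and highest of 9.96, 10.25 and 10.64 in mini-muscle and 8.996, 9.29 and 9.74 in regular-muscle. The difference was 0.92 (SE 0.169, 1.90-fold, adjusted p = 0.0012). The other 5 Camk2d probe sets ranged from -0.07 to 0.56, with adjusted p between 0.38 and 0.99. Of these, 1439168_at gave 0.56 (adjusted p = 0.38), with mini-muscle replicate 3 at 7.43 and the other mini-muscle arrays at 8.69 to 9.27. The mean of all Camk2d probe sets differed by 0.38 with an adjusted p of 0.54.

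Camk2b and Camk2g did not pass the test, and their differences had opposite signs. Camk2b encodes the beta subunit, which is known for muscle-specific splice forms, and it has a single probe set (1448676_at). The mini-muscle arrays had a lowest, median and highest of 11.42, 11.56 and 11.84 and the regular-muscle arrays had 11.07, 11.21 and 11.65. Regular-muscle replicates 2 and 3 lay within the mini-muscle range. The difference was 0.31 (SE 0.114, 95% interval 0.07 to 0.55, adjusted p = 0.13), and the adjusted p was 0.055 when only the brighter genes were tested.

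Camk2g encodes the gamma subunit, also widely expressed. On its brightest probe set (1423941_at) the mini-muscle arrays had 12.87, 12.95 and 13.11 as lowest, median and highest, and the regular-muscle arrays had 12.85, 13.23 and 13.37. The difference was -0.23 (SE 0.086, 95% interval -0.41 to -0.05, adjusted p = 0.14). Regular-muscle replicate 4 was the lowest of all 12 arrays, and without it the difference was -0.30 with an adjusted p of 0.017. The other Camk2g probe set (1423942_a_at) differed by -0.01 (95% interval -0.20 to 0.18, adjusted p = 0.97), and its arrays overlapped throughout.

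**Figure D1:**
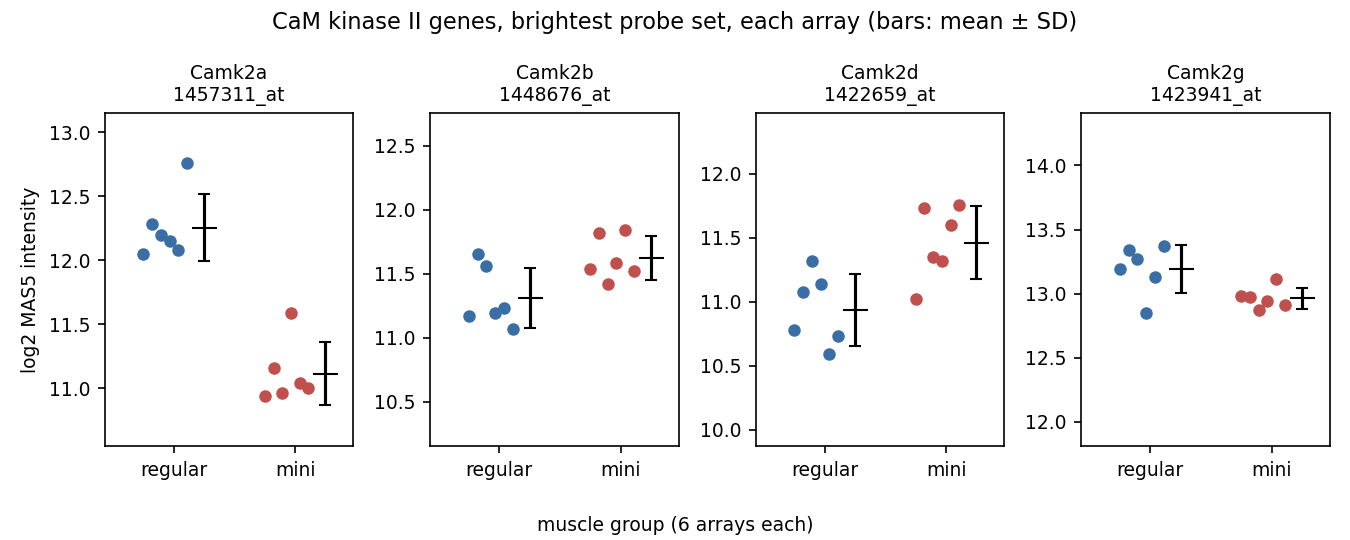
Log2 MAS5 intensity (vertical axis, a separate scale for each gene) of the brightest probe set of Camk2a, Camk2b, Camk2d and Camk2g in the 6 regular-muscle and 6 mini-muscle arrays. Points are arrays and bars are the group mean ± SD; the groups are apart for Camk2a (12.05 to 12.76 against 10.94 to 11.59) and overlap for the other 3 genes.

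Hdac4 rose in mini-muscle by 0.72 on the log2 scale (SE 0.159), or 1.65-fold, on its brightest probe set (1454693_at). Hdac4 is the class IIa deacetylase that binds CaM kinase II directly. The mini-muscle arrays had a lowest, median and highest of 10.23, 10.45 and 10.85 and the regular-muscle arrays had 9.38, 9.80 and 10.19. The groups did not overlap, but regular-muscle replicate 4 was close to the lowest mini-muscle arrays. The adjusted p was 0.0061, and the 95% interval was 0.39 to 1.06.

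The other 2 Hdac4 probe sets had positive differences that did not pass. On 1447566_at the difference was 0.72 (SE 0.247, adjusted p = 0.096). Its groups did not overlap, with 8.73 to 9.35 in mini-muscle and 7.38 to 8.67 in regular-muscle, where replicate 1 was the lowest. On 1436758_at the difference was 0.54 (adjusted p = 0.18) and the groups overlapped. Within groups r was 0.62 and 0.48 between the brightest Hdac4 probe set and the others and 0.20 between those others, over 12 arrays and as a description. The mean of all 3 probe sets differed by 0.66 with an adjusted p of 0.021, which made Hdac4 the only member to pass when every probe set was averaged.

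Hdac5, which is exported from the nucleus by protein kinase D and AMP-activated kinase signals as well as by CaM kinases, has 1 probe set (1415743_at). The mini-muscle arrays had a lowest, median and highest of 10.69, 11.03 and 11.20 and the regular-muscle arrays had 10.03, 10.68 and 10.83. Mini-muscle replicate 6 was the lowest of its group and lay inside the regular-muscle range, and regular-muscle replicate 1 was the lowest of its own. The difference was 0.43 (SE 0.136, 95% interval 0.14 to 0.71, adjusted p = 0.067). It passed when only the brighter genes were tested (adjusted p = 0.024). It also passed without mini-muscle replicate 6 (adjusted p = 0.040) or regular-muscle replicate 6 (adjusted p = 0.048). In the other omissions of 1 array it did not pass, with adjusted p up to 0.14. Of 6 other settings of the fit it passed in 1, where dim probe sets were left out (adjusted p = 0.040). It did not pass with quantile normalization (adjusted p = 0.099), median centring (adjusted p = 0.15) or no intensity trend (adjusted p = 0.22).

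Hdac7 and Hdac9 did not pass in any of these fits. Hdac7 is best known from endothelium and thymocytes, and its probe sets gave 0.28 (1420813_at, 95% interval -0.15 to 0.70, adjusted p = 0.56) and 0.27 (1420812_at, adjusted p = 0.63). On the former, mini-muscle ran from 8.94 to 10.20 and regular-muscle from 9.13 to 9.98. Endothelial markers gave none of 7 past the test, with a summed intensity of 7775 to 10730 in mini-muscle and 6214 to 9552 in regular-muscle. Hdac9 is itself a known MEF2 target and also gives a short splice form that lacks the deacetylase domain. Its brightest probe set (1434572_at) gave 0.30 (95% interval -0.08 to 0.68, adjusted p = 0.46), with 8.84 to 9.35 in mini-muscle and 8.46 to 9.21 in regular-muscle. The dim one (1421306_a_at) gave 0.33 (adjusted p = 0.90).

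**Figure D2:**
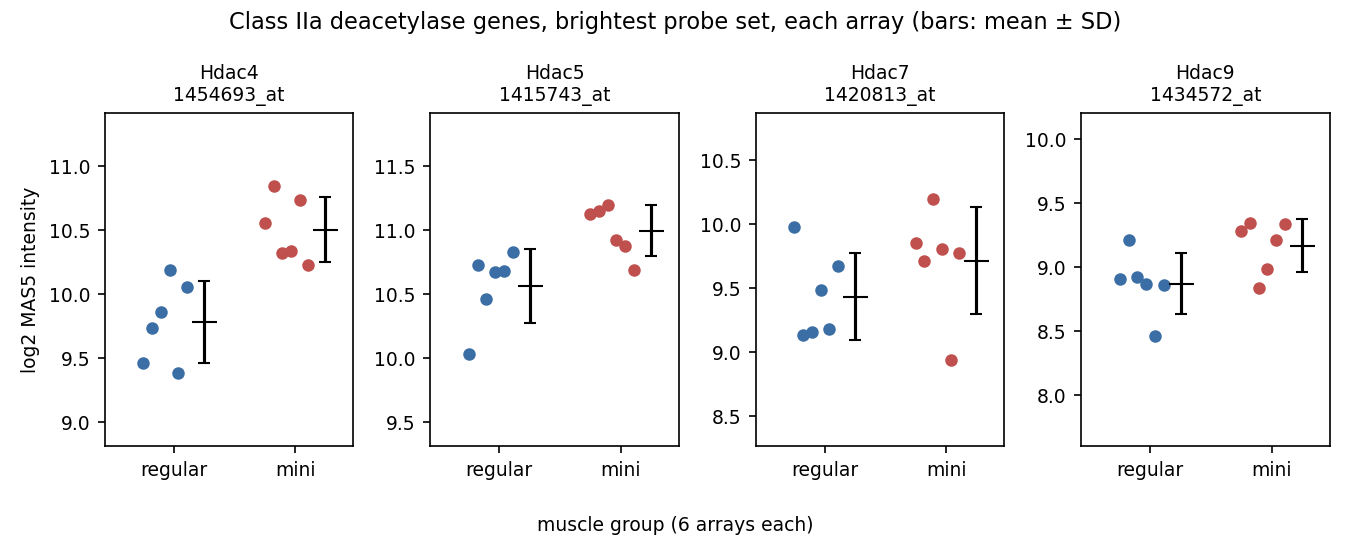
Log2 MAS5 intensity (vertical axis, a separate scale for each gene) of the brightest probe set of Hdac4, Hdac5, Hdac7 and Hdac9 in the 6 regular-muscle and 6 mini-muscle arrays. Points are arrays and bars are the group mean ± SD; the groups are apart for Hdac4 (9.38 to 10.19 against 10.23 to 10.85) and overlap for the other 3 genes.

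All 8 deacetylase probe sets had a positive difference, from 0.27 to 0.72 with a median of 0.38, and 1 of them was called. Of the 16 kinase probe sets 7 were positive and 9 negative, with a median of -0.03, and 4 were called, 2 in each direction. Over all probe sets the median difference was -0.005 and 49.6% were positive. Probe sets of 1 gene count more than once in these figures, and by brightest probe set 6 of the 8 genes were positive, beside 51.7% of all genes.

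**Figure D3:**
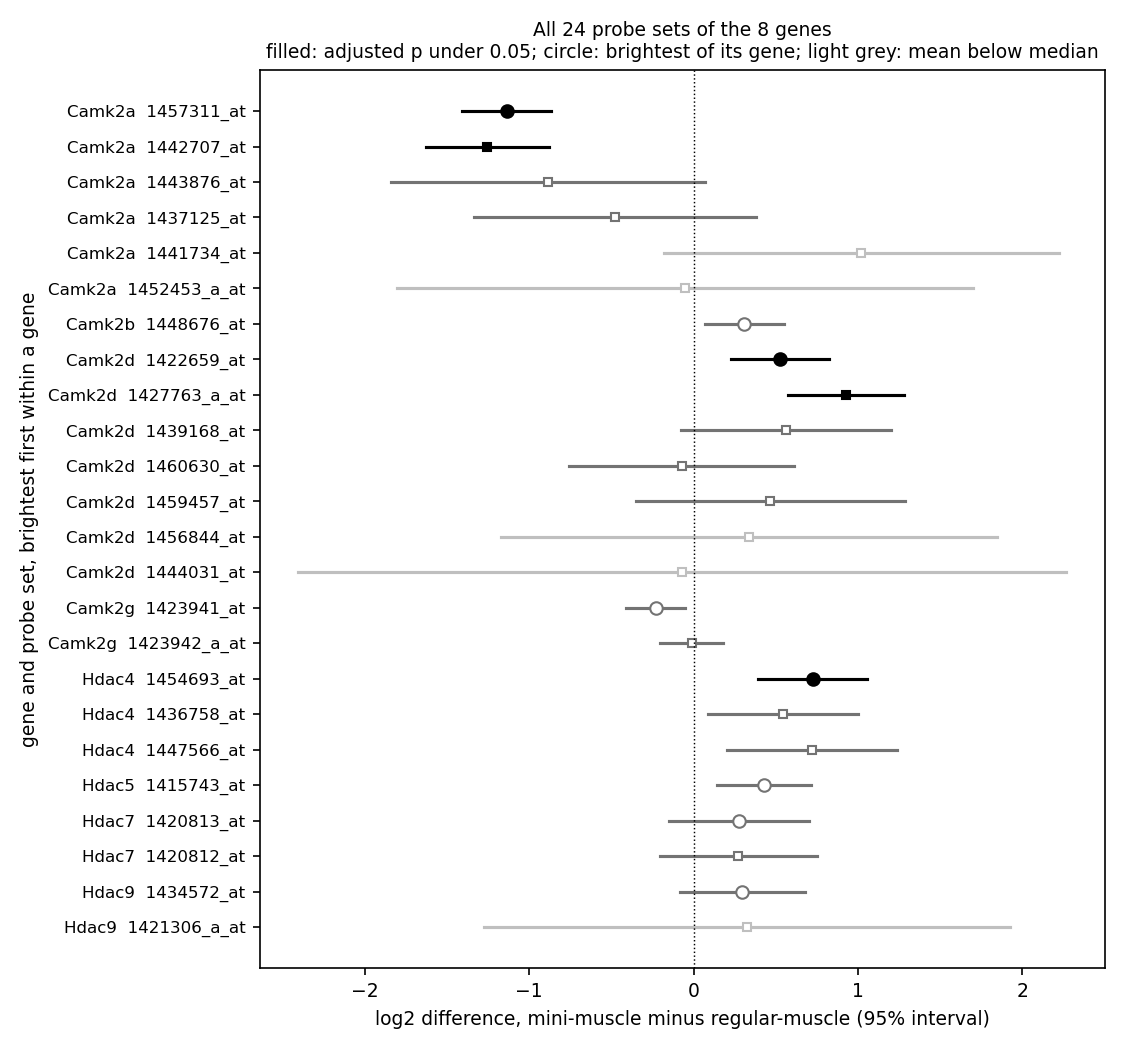
Mini-muscle minus regular-muscle difference in log2 intensity (horizontal axis) of all 24 member probe sets, grouped by gene, with 95% intervals of the limma fit. The called probe sets are 2 of Camk2a on the negative side and 2 of Camk2d and 1 of Hdac4 on the positive side; the 8 deacetylase probe sets lie between 0.27 and 0.72.

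The kinase genes differed from each other in how they stood between the groups. For each pair of genes of a family, the within-array difference of their brightest probe sets was compared between groups by a two-sided exact permutation test, with Benjamini-Hochberg adjustment over 12 pairs. With 6 arrays against 6 there are 924 assignments, and the smallest p they allow is 0.0022. Camk2a differed from each other kinase gene. Its difference between groups was more negative than that of Camk2d by 1.66 (-1.66, 95% interval -2.17 to -1.16), than that of Camk2b by 1.45 (-1.45, interval -1.88 to -1.01) and than that of Camk2g by 0.91 (-0.91, interval -1.22 to -0.59). Each of these had exact p = 0.0022, the smallest possible, and adjusted p = 0.0065.

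On its brightest probe set, Camk2g also differed from the beta and delta genes. Its other probe set, with a difference of -0.01, was not set against them. The test shows unequal change and not which gene of a pair changed. The Camk2b difference exceeded that of Camk2g by 0.54 (interval 0.29 to 0.79, exact p = 0.0022, adjusted p = 0.0065). The Camk2d difference exceeded it by 0.76 (interval 0.34 to 1.17, exact p = 0.0043, adjusted p = 0.010). Camk2b and Camk2d were not told apart, with -0.22 (interval -0.52 to 0.08, exact p = 0.14, adjusted p = 0.20).

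None of the 6 deacetylase pairs passed. The largest separation was Hdac4 over Hdac7 at 0.45 (interval -0.24 to 1.13, exact test, adjusted p = 0.26). Hdac4 exceeded Hdac9 by 0.43 (interval 0.06 to 0.80, exact p = 0.032, adjusted p = 0.065) and Hdac5 by 0.30 (interval -0.07 to 0.66, exact test, adjusted p = 0.17). Hdac5 against Hdac7 gave 0.15 (interval -0.46 to 0.76), Hdac5 against Hdac9 gave 0.13 (interval -0.33 to 0.60) and Hdac7 against Hdac9 gave -0.02 (interval -0.64 to 0.60). The 6 intervals reach as far as 1.13, and alike behaviour was not shown.

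**Figure D4:**
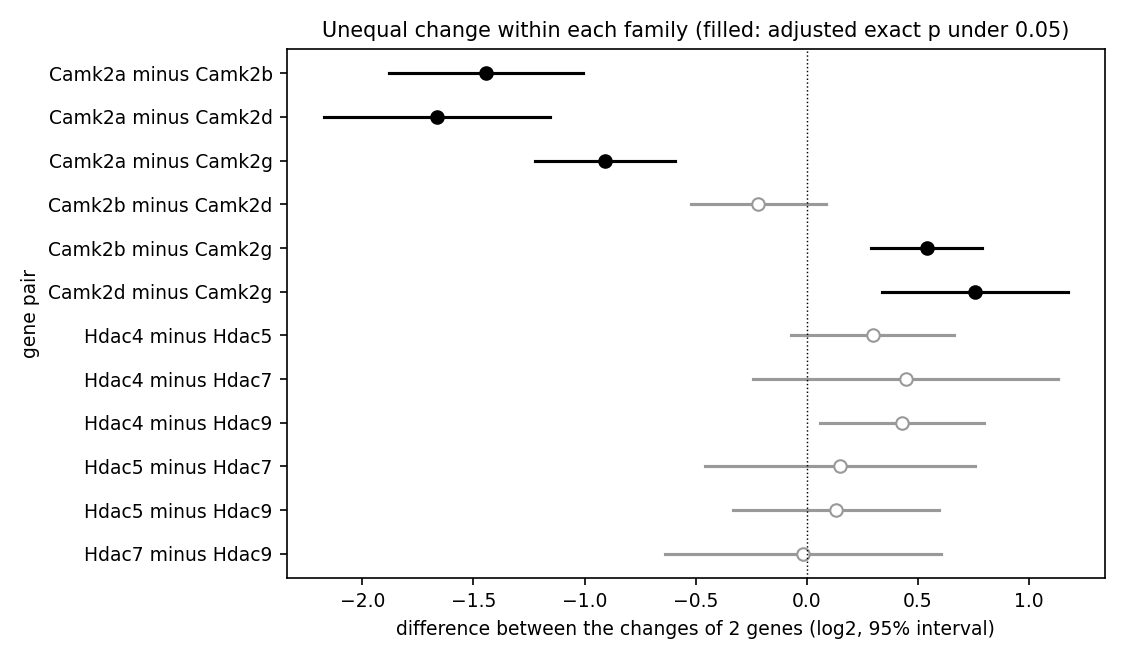
Difference between 2 genes of a family in their mini-muscle minus regular-muscle change (horizontal axis, log2), with 95% intervals, for the 12 pairs. The 5 pairs that pass the exact permutation test all hold Camk2a or Camk2g, and the 6 deacetylase pairs lie between -0.02 and 0.45.

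The probe sets of 1 gene were set against its brightest in the same way. Of 11 such pairs, none passed by the exact permutation test with adjustment, and 1 had an unadjusted p under 0.05. That pair was of Camk2g, at -0.22 (interval -0.39 to -0.05, exact p = 0.0087, adjusted p = 0.095). Leaving out 1 array, it passed without mini-muscle replicate 3 (adjusted p = 0.024), and a Camk2a pair, 1457311_at against 1443876_at, passed without mini-muscle replicate 1 (-0.78, adjusted p = 0.024).

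The partners of these genes were described by 8 lists taken from textbook roles, each gene at its brightest probe set in the same fit. Of 112 distinct listed genes 103 were measured, and 27 passed, 19 higher and 8 lower in mini-muscle. Without limma's intensity trend 15 passed, 14 higher and 1 lower. The count of 27 is 26.2%, beside 10.4% of all genes and 19.4% of those brighter than the median gene. The lists were chosen with earlier results of these arrays known, so their counts are a description.

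Upstream of and around CaM kinase II, 1 of 13 measured genes of the calmodulin kinase cascade and its regulators fell and none rose (median difference -0.04). The gene that fell was Pnck, a CaM kinase I family member, at -1.20 (adjusted p = 0.022), and its level was below the median gene. It lost the call in 3 of the 12 omissions of 1 array and without the intensity trend (adjusted p = 0.071). Camkk2, the kinase that activates CaM kinases I and IV, differed by 0.14 (adjusted p = 0.88). Camk2n1, an inhibitor protein of CaM kinase II, differed by -0.09 (adjusted p = 0.81). Ppm1f and Ppm1e, phosphatases that act on the kinase, gave 0.56 (adjusted p = 0.054) and 2.07 (adjusted p = 0.055), the latter at a dim probe set. With an offset of 64 before log2 both passed (adjusted p = 0.049 and 0.040).

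Among 18 kinases and 14-3-3 carriers of class IIa deacetylases, 2 rose and 3 fell (median -0.01). Sik1, a salt-inducible kinase that phosphorylates these deacetylases, rose by 1.32 (2.50-fold, adjusted p = 7.7e-04). Its arrays did not overlap, with 9.76 to 10.64 in mini-muscle and 7.98 to 9.52 in regular-muscle. The second Sik1 probe set, a dim one, gave 0.27 and did not pass (adjusted p = 0.93). The other salt-inducible kinases did not rise. Sik2 fell by 0.50 (adjusted p = 0.0087) with overlapping groups, a call lost without the intensity trend, and Sik3 gave -0.09 (adjusted p = 0.79). Prkaa2, the alpha2 catalytic subunit of AMP-activated kinase, fell by 0.43 (adjusted p = 7.7e-04), and its other 2 probe sets were negative and did not pass (adjusted p = 0.31 and 0.74). Ywhae, the epsilon 14-3-3 protein, fell by 0.47 (adjusted p = 3.8e-04), with 14.58 to 14.95 in mini-muscle and 15.19 to 15.47 in regular-muscle. Its other 3 probe sets were also negative, and 2 of them passed. Without the intensity trend the calls of Prkaa2 and Ywhae were lost as well, with adjusted p of 0.066 and 0.053. Prkd1, a protein kinase D gene, differed by 0.03 (adjusted p = 0.97).

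No corepressor partner (9 measured, median -0.14) and no other deacetylase (13 measured, median -0.05) passed at its brightest probe set. Hdac3, the active deacetylase that class IIa proteins recruit, differed by -0.18 (adjusted p = 0.28). Ctbp2, a corepressor, gave -0.31 (adjusted p = 0.13), while its second probe set passed at -0.63 (adjusted p = 0.0051). Ankra2, which binds class IIa deacetylases, gave -0.24 (adjusted p = 0.36). The sirtuins Sirt2, Sirt5 and Sirt6 gave -0.25, -0.26 and -0.47, with adjusted p of 0.14, 0.20 and 0.33.

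Of the 9 MEF2 factors and transcriptional partners 2 rose and none fell (median 0.20). Mef2c, a MEF2 factor of muscle, rose by 0.54 (adjusted p = 9.2e-05), with 15.13 to 15.52 in mini-muscle and 14.75 to 14.96 in regular-muscle. Its other 4 probe sets gave 0.70 to 1.03. Mef2d gave 0.23 (adjusted p = 0.18) and Mef2a 0.004 (adjusted p = 0.99). Vgll2, a MEF2 cofactor of skeletal muscle, rose by 0.56 (adjusted p = 0.015), a call lost without the intensity trend (adjusted p = 0.15).

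In the Hdac4, Dach2 and myogenin axis 7 of 14 genes rose and none fell (median 0.88). Myog, the transcription factor myogenin, rose by 1.995 (3.99-fold, adjusted p = 1.0e-06). Its arrays were apart, with 11.05 to 11.65 in mini-muscle and 8.72 to 10.04 in regular-muscle. Dach2, the repressor that Hdac4 is known to lower in denervated muscle, rose by 0.92 (1.89-fold, adjusted p = 0.0029), and its second probe set rose by 1.16 (adjusted p = 0.021). Ncam1, a cell adhesion protein, rose by 2.39 (adjusted p = 1.2e-04) at its brightest probe set, while its 6 dimmer ones ranged from -0.81 to 1.60. Chrnb1, an acetylcholine receptor subunit, rose by 0.84 (adjusted p = 1.9e-04). Of 4 markers of satellite cells, the muscle stem cells that also use myogenin when they differentiate, 1 passed, and the median difference of the 4 was -0.25. The marker that passed was Myf5, at 0.96 (adjusted p = 0.021), with a level below the median gene. Pax7 and Calcr gave -0.67 and -1.04 and Cdh15 gave 0.17, with adjusted p of 0.62, 0.57 and 0.77. The part of satellite cells in the Myog difference was not tested.

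Among 15 measured target genes reported for MEF2 and class IIa deacetylases 4 rose and 1 fell (median 0.07). Myh7, the slow myosin heavy chain, rose by 0.99 (adjusted p = 6.7e-06), Xirp1, an actin-binding repeat protein, by 1.53 (adjusted p = 1.4e-04) and Hspb7, a small heat shock protein, by 1.75 (adjusted p = 3.7e-04). Nr4a1, an orphan nuclear receptor that MEF2 drives in muscle and other cells, fell by 0.62 (adjusted p = 0.0044), a call lost without the intensity trend (adjusted p = 0.091). Ppargc1a, the coactivator PGC-1alpha and a known MEF2 target, differed by 0.06 (adjusted p = 0.90).

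Of 13 measured CaM kinase II substrates in calcium handling and their partners 4 rose and 3 fell (median 0.15). Sln, sarcolipin, an inhibitor of the calcium pump, rose by 4.60 (adjusted p = 7.6e-08), with 15.48 to 15.99 in mini-muscle and 10.14 to 12.97 in regular-muscle. Casq2, the slow and cardiac form of calsequestrin, rose by 1.38 (adjusted p = 8.7e-06). The other calsequestrin gene, Casq1, was brighter, with a mean log2 intensity of 16.19 against 11.19. It fell by 0.41 (adjusted p = 0.0045) without overlap, a call lost without the intensity trend. Jph1, a junctophilin that ties the calcium store to the surface membrane, fell by 0.66 (adjusted p = 4.6e-05), although its second probe set gave 0.10. Ryr1, the calcium release channel, differed by 0.25 (adjusted p = 0.094), and its second probe set gave -0.27. The brightest one passed with quantile normalization (0.33, adjusted p = 0.0075), without dim probe sets (adjusted p = 0.042) and with robust eBayes (adjusted p = 0.041).

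**Figure D5:**
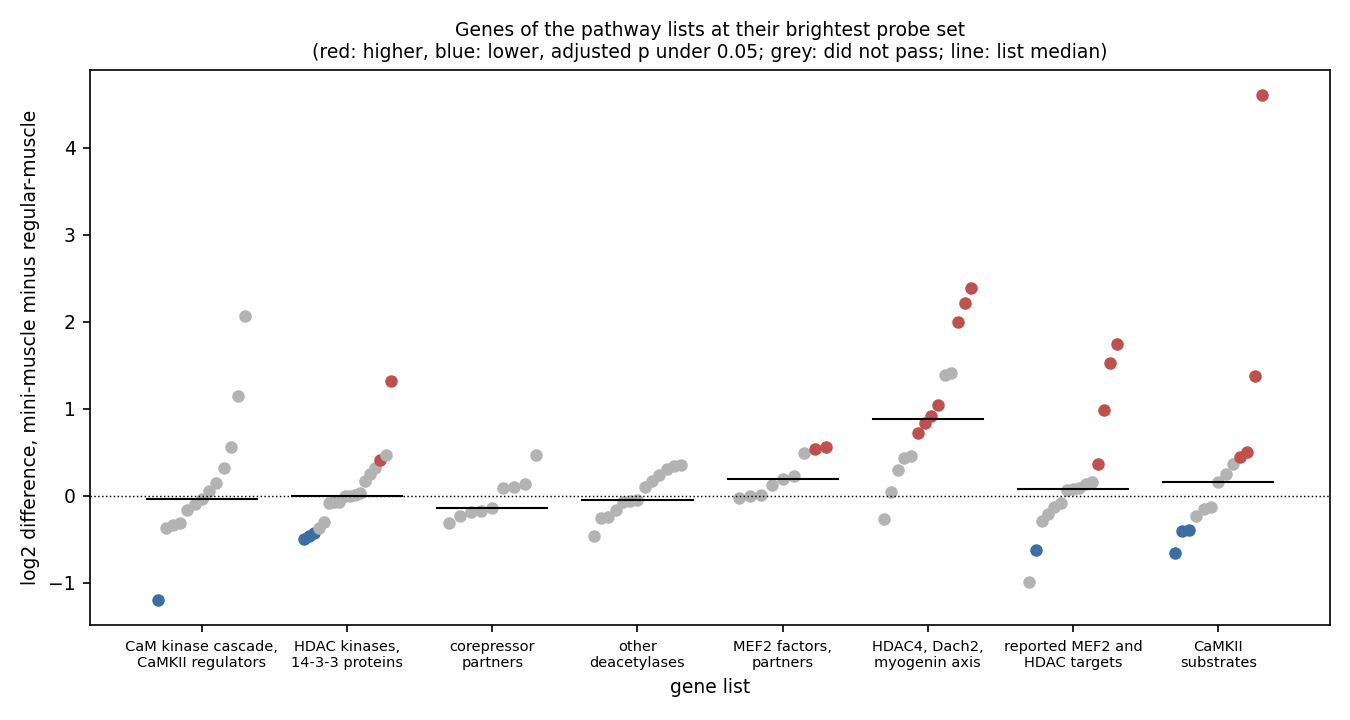
Mini-muscle minus regular-muscle difference in log2 intensity (vertical axis) of each measured gene of the 8 lists (horizontal axis), at its brightest probe set. Red points passed the test as higher and blue points as lower, and grey points did not pass. Genes that passed are most frequent among the calcium handling genes (7 of 13) and in the Hdac4, Dach2 and myogenin axis (7 of 14). Of all genes 10.4% passed, and of those brighter than the median gene 19.4%. All 13 calcium handling genes and all but 4 of the axis were that bright. None passed among the corepressors and the other deacetylases.

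Some markers of other cells differed between the groups. Fibroblast markers fell for 4 of 6 genes, with a summed intensity of 24850 to 43130 in mini-muscle and 44470 to 69830 in regular-muscle. Tendon markers fell for 2 of 4 genes, with 1952 to 5257 against 6679 to 9857. Of 6 macrophage markers 1 fell, and none of the Schwann cell (5), smooth muscle (6), T cell (4), adipocyte (3) or erythroid (3) markers passed. The part of these cells in the differences of the kinase and deacetylase genes was not tested.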

How the data were processed

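Total RNA of the gastrocnemius was extracted with Trizol and a column, and biotin-labelled cRNA was made from 5 µg, per the labels' protocols. The intensity values deposited by the authors are linear MAS5 signals, per the submitters' processing notes; its version was not given in the sources used here. After trimming 2% at each end, every array of the deposited table had a mean of 800.0, a common scaling that fixes the mean but not the spread. Detection calls were not used here, and low intensities vary strongly on the log2 scale. All intensities were taken to log2 with no offset. Of 45101 probe sets 64 control ones were left out. The annotation named 1 gene for 34945 and several for 932.

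Groups were compared with limma 3.58.1 (R 4.3.3; lmFit, eBayes with an intensity trend, two-sided, 6 arrays against 6) on all 45037 probe sets, with Benjamini-Hochberg adjustment over all of them. Each gene was represented by the probe set with the highest mean over the 12 arrays, and every member probe set is also given. A probe set is called dim when its mean log2 intensity is below 7.62, the median over probe sets, and a gene is dim below 8.56, the median over genes. Named genes are the members, up to 3 genes per list by smallest adjusted p and a short set of fixed pathway genes. The 3 genes most like Camk2a and 3 muscle markers are also named. Satellite cell markers, Sik2, Sik3 and Casq1 were added after their values were seen. Gene pairs were compared by exact permutation tests (Python 3.11.15). The fit was tested on simulated data with changes set in probe sets brighter than the median. It recovered 46% of 100 changes of 2-fold and 27% of 100 changes of 1.5-fold, with 2 false calls among 75. Those were the only changes set among 45037 probe sets, and the 75 calls were far fewer than the 3208 in the data. The shares recovered hold for that simulated setting. A difference that did not pass is therefore not shown to be absent. Members and lists were chosen with earlier results of these data known. The labels say that arrays hold different animals, and the replicate numbers only name arrays. Their number limits the precision. Alternatives were an offset of 64, centring on array medians, quantile normalization, no intensity trend, robust eBayes, leaving out dim probe sets or genes, the mean of a gene's probe sets, and leaving out each array.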

Additional observations from a re-analysis of the deposited data

Results flagged for a closer look

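In 6 of the 48 groups formed by 24 probe sets and 2 muscle groups, 1 array stood far from the other 5, where chance gives about 1 group in 20. In each of the 6 the gap to the nearest array was 0.67 or more of the group's range. The 48 groups share arrays and genes, so they are not independent, and the count was not tested. Of these 6, 4 concerned Camk2a. On 1457311_at, mini-muscle replicate 4 had a log2 intensity of 11.59 beside 10.94 to 11.16 in the other mini-muscle arrays. On the same probe set regular-muscle replicate 6 had 12.76 beside 12.05 to 12.28, and the groups stayed apart. On 1443876_at, mini-muscle replicate 1 had 5.51 beside 8.68 to 9.33, and regular-muscle replicate 5 had 8.79 beside 9.23 to 9.43. On the Camk2d probe set 1439168_at, mini-muscle replicate 3 had 7.43 beside 8.69 to 9.27. On the Hdac4 probe set 1447566_at, regular-muscle replicate 1 had 7.38 beside 8.30 to 8.67. No single array accounted for more than 1 of these 6.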

How the results depend on the processing

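No paired analysis was possible because the replicate numbers only name the arrays and tie no animals across groups. Of 427 values of member probe sets under an alternative, 389 kept direction and side of the threshold. Against 3208 called probe sets, 2085 were called with arrays centred on their medians and 1424 without the intensity trend. Without the trend 3 of the 5 called member probe sets and 1 of the 3 called member genes passed, 15 listed genes passed in place of 27 (14 higher and 1 lower, against 19 and 8), and Hdac4 1454693_at had an adjusted p of 0.056 and Camk2d 1422659_at of 0.16. The latter also missed the threshold with median centring (adjusted p = 0.062). With the mean of all probe sets 1 member gene passed. The number of unequal probe set pairs of 1 gene was 0 to 1 when single arrays were left out. Signs turned for Camk2d 1444031_at with an offset of 64 (0.13) and, with quantile normalization, for Camk2g 1423942_a_at (0.032), Acta1 (0.083), Ckm (0.0095) and Prkd1 (-0.0029). Leaving out 1 array, signs also turned for Camk2a 1452453_a_at (-0.54 to 0.41), Camk2d 1460630_at (-0.21 to 0.19), 1456844_at (-0.035 to 0.67) and 1444031_at (-0.69 to 0.59), Camk2g 1423942_a_at (-0.059 to 0.043) Hdac9 1421306_a_at (-0.094 to 0.70), Camkk2 (-0.081 to 0.32), Mef2a (-0.017 to 0.030) and Prkd1 (-0.060 to 0.14). None of these had passed the test. The cause was not tested. Low signal limits the dim probe sets.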
